A study of Homo sapiens with 6 samples.

Results

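The small RNA pathway described here is covered by 10 genes: DICER1, DROSHA, XPO5, AGO1, AGO2, AGO3, AGO4, TNRC6A, TNRC6B and TNRC6C (the AGO genes are named EIF2C in older annotations). They were chosen by name out of 20136 protein-coding genes. Their sites were those of the 6 deposited site tables whose midpoint lay within the gene's GENCODE span on the gene's own strand, and each site was placed in coding sequence, 3'UTR, 5'UTR, other exon or intron, in that order of priority. The 10 genes held 909 of 706883 sites in G20, 185 of 259337 in G35, 277 of 379718 in G45, 3466 of 2411483 in HuR replicate 1, 5607 of 4024972 in HuR replicate 2 and 4500 of 2857291 in Total. Each site sequence of these genes, 14944 of 14944, equalled the GRCh37 (hg19) genome at its stated position and strand.

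PAR-CLIP (photoactivatable ribonucleoside-enhanced crosslinking and immunoprecipitation) feeds cells the uridine analog 4-thiouridine, crosslinks it to protein with light of 365 nm and reads crosslinked positions as T > C conversions. The cells were HEK293, a long-established line from human embryonic kidney, fed 4-thiouridine and irradiated in all 6 libraries, and their RNA was cut with RNase T1, which cleaves after G. The background group was FLAG-tagged green fluorescent protein (GFP), expressed from a doxycycline-inducible stable line, immunoprecipitated with the FLAG antibody and cut from a gel at about 20, 35 and 45 kDa (libraries G20, G35 and G45, 1 each). The HuR group was FLAG-tagged HuR, the product of ELAVL1, from a stable line of the same kind, with 2 replicates, so both groups had a tagged transgene and not the endogenous protein. Total was 1 library of proteinase K treated and ribosomal RNA depleted RNA without immunoprecipitation. The slices carry no replicate number and differ in protein size, so their spread is a spread between slices.

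MicroRNAs are made in steps that these genes encode. DROSHA cuts the primary transcript in the nucleus, XPO5 carries the hairpin to the cytoplasm and DICER1 cuts it to the mature duplex, one strand of which is loaded on an Argonaute protein (AGO1 to AGO4, of which AGO2 is the one known for cleaving targets). The TNRC6 (GW182) proteins bind Argonaute and recruit the deadenylases that silence the target mRNA. In hg19, AGO4 (chr1:36273617-36323491), AGO1 (chr1:36335409-36396133) and AGO3 (chr1:36396319-36538101) stand side by side on the plus strand of chromosome 1, and DROSHA (chr5:31400601-31532303) and DICER1 (chr14:95552565-95624347) are read from the minus strand. XPO5 is at chr6:43490072-43543775, AGO2 at chr8:141530255-141645732, TNRC6A at chr16:24621530-24838953, TNRC6B at chr22:40440821-40731812 and TNRC6C at chr17:75954785-76104903. HuR is known as a nuclear and cytoplasmic protein that binds U-rich and AU-rich stretches of introns and 3'UTRs.

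The reads summed over sites ranged from 6187300 in G35 to 38644636 in G20, and 3 reads corresponded to between 0.0776 RPM (G20; RPM is the usual scaling of reads to the total of their library) and 0.485 RPM (G35). In Total, the HEK293 genes LIN28B, IGF2BP1 and IGF2BP3 had 627, 3194 and 120 exonic reads. PTPRC, CD3E, HBB and GFAP, markers of blood cells and glia, had 3, 0, 0 and 2, whereas ALB and COL1A1 had 41 and 24. ELAVL1 itself had 1184 exonic reads in Total. No molecular identifiers were used, which leaves intervals and floors to describe counting error alone.

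The sites that carry the comparison are shown first. For each gene, the site with the largest lower value of the 2 HuR replicates (in RPM) and the site with the largest lowest value of the 3 slices were taken (the largest median of the slices where 1 slice was always at 0). Sites were first merged across libraries, reads are those of the merged site, and the stretch shared by the libraries, of at most 30 bases, is given 5′ to 3′ on the gene's strand. Merged sites could be longer, such as chr16:24742359-24742539 for the TNRC6A HuR site and chr14:95553660-95553752 for that of DICER1. Their reads need not all lie on the bases shown. The capitals mark runs of 3 or more T or of 3 or more G. The HuR sites were chosen on their HuR reads, so that their values are a description. Those of DICER1 (chr14:95553664-95553693, 3'UTR), AGO1 (chr1:36389630-36389659, 3'UTR), AGO3 (chr1:36521973-36521999, 3'UTR), TNRC6A (chr16:24742513-24742539, intron) and TNRC6C (chr17:76103311-76103340, 3'UTR) are shown because they hold long T runs or many T, and were picked for that.
DICER1 HuR site: gttataTTTcTTTTcTTTTTTcTTTTatat
AGO1 HuR site: cacTTTagTTTctaaacTTTTTatccctct
AGO3 HuR site: ccttcatcacctacaTTTTTTTcccag
TNRC6A HuR site: cTTTcTTTTTTTcTTTTTTTTcacttg
TNRC6C HuR site: TTTTTGGGTTTTgttGGGTTTgaGGGGTTT

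Of the background sites, those of DROSHA (chr5:31400771-31400791, 3'UTR, minus strand), DICER1 (chr14:95623688-95623710, 5'UTR), TNRC6A (chr16:24728957-24728977, intron) and TNRC6B (chr22:40662144-40662173, coding sequence) had no run of 3 T, apart from that of DROSHA, and that of TNRC6A also had no run of 3 G. The background stretch of TNRC6C, not shown, also held a run of 3 T.
DROSHA background site: gtgTTTgagaTTTgagaGGGc
DICER1 background site: acagcGGGGacgaggcgacggcg
TNRC6A background site: gaagtctaggagaatccaatt
TNRC6B background site: aagaggtgccaaggcctgaGGGGaaatctg

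The DICER1 HuR stretch held 22 T in 30 bases and the TNRC6A HuR stretch 20 T in 27 bases, whereas the DICER1 background stretch held 0 T and 12 G in 23 bases. Of the HuR stretches not shown, that of TNRC6B held 11 T and 8 G in 30 bases, that of XPO5 11 T in 27 and that of AGO4 8 T in 19, and the HuR site of DROSHA is its background site. In reads, the DICER1 HuR site had 11 and 368 in HuR replicates 1 and 2, 3, 0 and 10 in G20, G35 and G45, and 5 in Total. The AGO3 site had 20 and 149 in HuR, 0, 0 and 11 in the slices and 14 in Total. In RPM, the DICER1 site had 1.15 and 11.5 in HuR and 1.33 in G45, so the groups overlapped. The AGO3 site had 2.10 and 4.64 in HuR and 1.46 in G45, without overlap. The TNRC6A intron site had 19 and 122 reads in HuR compared to 0, 4 and 1 in the slices, and that of AGO1 had 12 and 59 compared to 0, 0 and 1.

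The background sites of DICER1 and TNRC6A differed in size. The DICER1 5'UTR site had 6, 0 and 5 reads in G20, G35 and G45, 0 in both HuR replicates and 7 in Total. The TNRC6A intron site held more, with 40, 20 and 122 reads in the slices, 0 in HuR replicate 1, 67 in HuR replicate 2 and 0 in Total. Thus this site was in the background and in only 1 of the 2 HuR replicates.

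DROSHA, the nuclear enzyme that opens the pathway, had 1 site that outweighed the rest of the gene. This site lay in the last exon, 170 nt from the 3′ end of a 3'UTR of 941 nt, and measured 20 to 24 nt in the 5 immunoprecipitated libraries. It had 2279 reads in G20, 5935 in G35, 4185 in G45, 1309 in HuR replicate 1, 3179 in HuR replicate 2 and 2 in Total. In RPM these were 59.0, 959, 555, 137, 99.0 and 0.0557. The slices G35 and G45 were above both HuR replicates and G20 was below them, so the groups overlapped in RPM, and Total was below the floor of 3 reads.

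Of all DROSHA reads, this site held 94.2% ± 5.35 (SD, n = 3) in the slices and 43.5% ± 21.7 (SD, n = 2) in HuR, compared to 0.0768% (95% Wilson interval 0.0211 to 0.280) in Total. Of the reads of all 10 genes, it held 53.6%, 88.3% and 80.2% in G20, G35 and G45, and 18.7% and 5.98% in HuR replicates 1 and 2. Ranked by reads among all 3'UTR sites of a library, it was number 3, 3 and 4 in the slices and 10 and 16 in HuR, but number 98088 of 205554 in Total. The 2 reads of Total lay at chr5:31400756-31400777 and shared only a part of the stretch. The remaining 3'UTR of DROSHA had 1, 0 and 7 reads in the slices, 4 and 100 in HuR and 41 in Total.

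**Figure D1:**
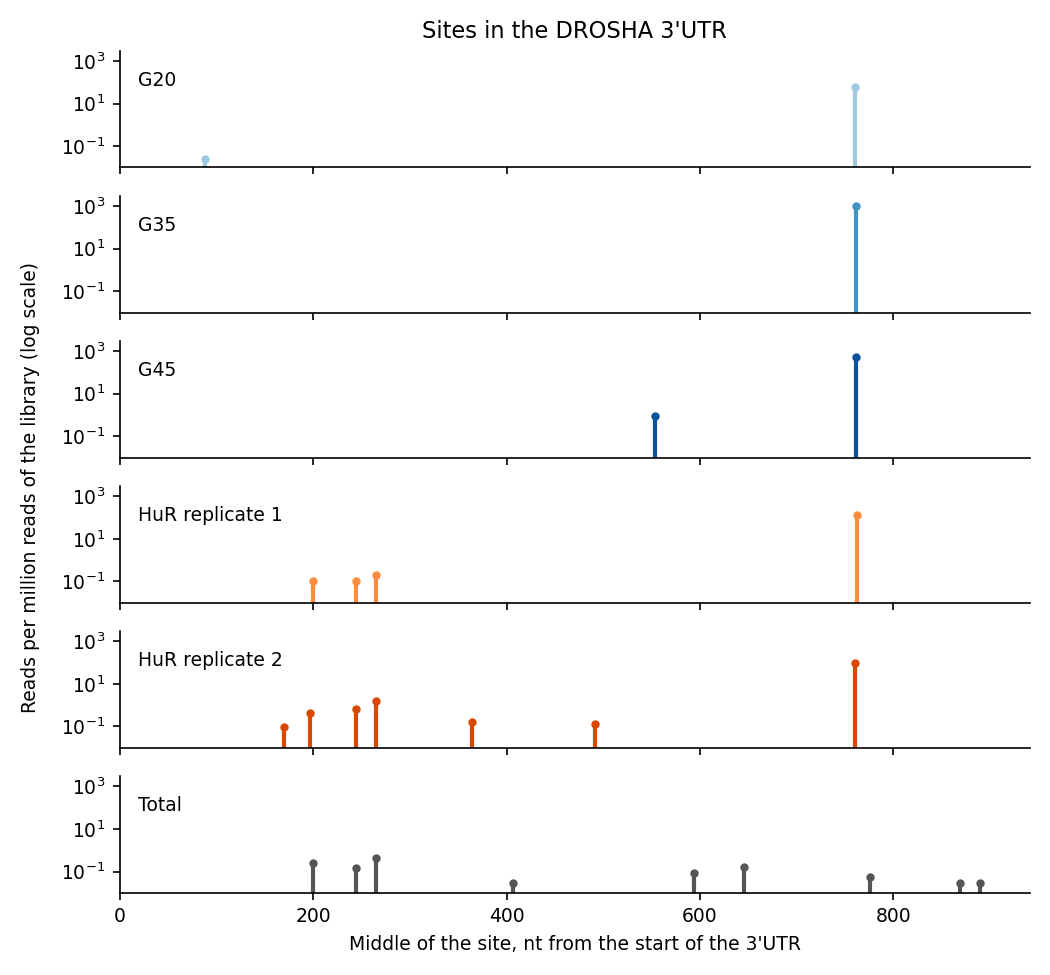
Sites along the DROSHA 3'UTR in each library, by the middle of the site in nt from the start of the 3'UTR (x axis) and RPM on a log scale (y axis, 1 line per site). In the 5 immunoprecipitated libraries 1 site stands at 59.0 to 959 RPM, whereas Total has low sites along the whole length.

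Conversions were present at the DROSHA site, with 51.3, 54.0 and 52.3 events per 100 reads in G20, G35 and G45 and 45.8 and 63.3 in HuR replicates 1 and 2. They fell on 4 to 6 positions in the slices and on 2 and 4 in HuR. Its 21 bases occurred once in the primary GRCh37 assembly and, allowing 1 mismatch, nowhere else in it; sequences outside that assembly, such as ribosomal DNA repeats and vectors, were not searched. With 2 mismatches 4 further loci matched, and these held 0, 8, 6, 2, 0 and 0 reads in the order of the libraries above. The stretch matched no mature or hairpin sequence of the RefSeq miRNA table. Because of this site, values below are given with it and without it, and the form without it was added after the data had been seen. The site was picked as the DROSHA site with the most reads in a slice, so leaving it out lowers the slices by choice.

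The other 9 genes were low in the slices and high in HuR when reads were scaled to the library. AGO3 had 3.16, 9.70 and 19.4 RPM over the whole gene in G20, G35 and G45, 82.2 and 277 in HuR replicates 1 and 2 and 49.4 in Total. DICER1 had 3.42, 5.66 and 10.9 RPM in the slices, 38.8 and 107 in HuR and 38.6 in Total. TNRC6B had 9.08, 20.8 and 23.6 RPM in the slices, 123 and 311 in HuR and 80.0 in Total. XPO5 had 3.70, 8.08 and 3.71 RPM in the slices, 20.2 and 63.2 in HuR and 39.0 in Total. In each of these genes both HuR replicates were above all slices, and HuR replicate 1 was level with Total in DICER1 but below it in XPO5.

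In all, 9 of 10 genes had both HuR replicates above all 3 slices in whole gene RPM, DROSHA being the exception, and this held for 64.1% of the 14389 protein-coding genes tested. For intron reads it held for 10 of 10 genes, compared to 72.4% of 12341 genes, and for 3'UTR reads for 7 of the 8 tested, compared to 72% of 4348 genes. For coding reads it held for 0 of the 9 tested (5.74% of 5455 genes), and AGO1, TNRC6B and TNRC6C had both replicates below all slices, as did 25.8% of genes. Over whole gene and intron reads the members, apart from DROSHA over the whole gene, had the direction that most genes had on this scale. RPM depends on what else was sequenced in a library, and the scaling of the tests below takes that up.

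The question whether any of the 10 genes had more reads with HuR than with GFP was tested with edgeR's quasi-likelihood test on read counts, with TMM factors among genes. None of the 10 passed an adjusted p of 0.05 over whole gene reads, where 0.208% of all genes were higher and 2.1% lower in HuR. At an unadjusted p under 0.05 there were 2 of the 10, and 3778 of 14389 genes. The median log2 change of the 10 was 0.82 with 9 above 0, beside a median of -0.06 over all genes with 48.5% above 0. AGO3 had a log2 change of 1.88 (SE 0.67, adjusted p = 0.109 by edgeR) and TNRC6B of 1.29 (SE 0.67, adjusted p = 0.225 by edgeR). DICER1 had 1.11 (SE 0.64, adjusted p = 0.274 by edgeR), and the range of the other members above 0 was 0.51 (XPO5) to 0.89 (TNRC6A).

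DROSHA had a log2 change of -2.75 (SE 1.12, adjusted p = 0.137 by edgeR), the only value below 0. Without the 3'UTR site it was 1.08 (SE 0.66, adjusted p = 0.300 by edgeR), within the range of the other members. That is no like comparison, since the site was picked on its slice reads and the other members kept all their sites. DESeq2 on the counts with the site gave -2.80 with an adjusted p of 0.00193, so that DROSHA was called lower in HuR by this tool, along with 11.1% of all genes. Over the alternatives tried, the adjusted p of DROSHA ran from 0.00193 to 0.657, and DESeq2 was not run without the site.

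**Figure D2:**
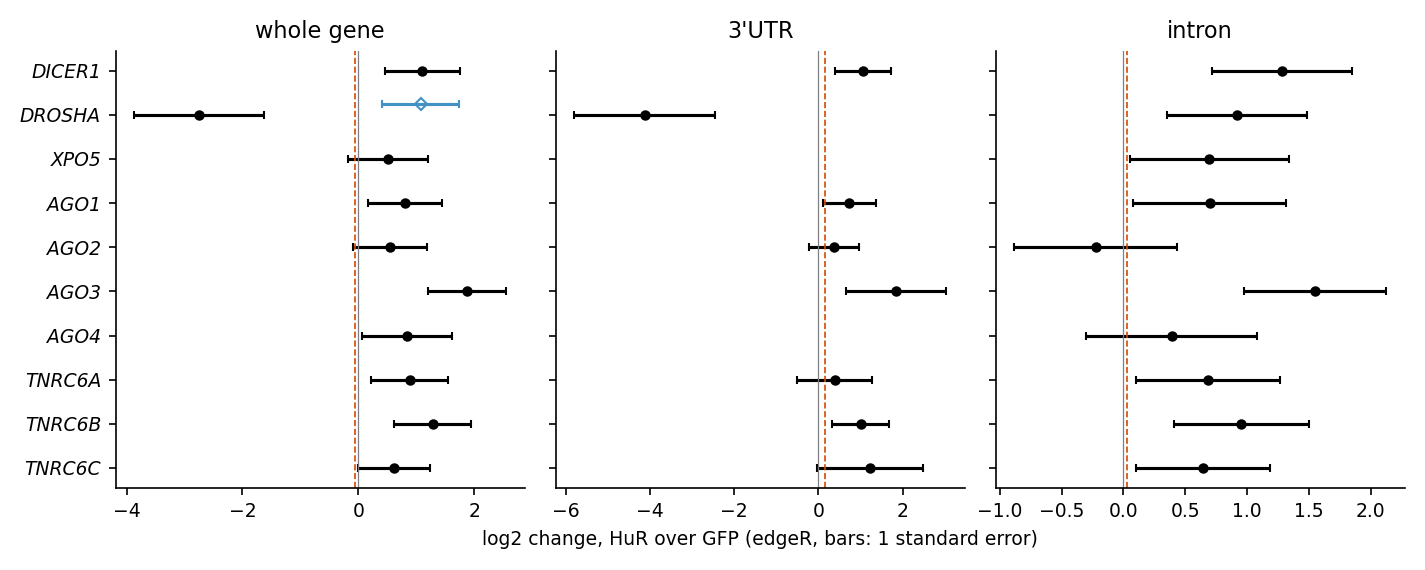
The log2 change of HuR over GFP for each gene (x axis, points with 1 standard error from edgeR) over whole gene, 3'UTR and intron reads; the dashed line is the median of all genes tested. Nearly all points lie between 0 and 2, DROSHA is at -2.75 and -4.12 in the first panels, and the open diamond shows it at 1.08 without its 3'UTR site.

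By part of the gene, none of the members passed either. In the 3'UTR 8 were tested (XPO5 and AGO4 had too few reads), and edgeR called 0% of all 4348 genes higher and 0% lower with 832 at an unadjusted p under 0.05, whereas DESeq2 called 48 higher and 433 lower (9.96%). The 8 had a median log2 change of 0.86, beside 0.16 over all genes. DROSHA was at -4.12 (SE 1.68, adjusted p = 0.232 by edgeR), and was called lower by DESeq2 at -4.19 (adjusted p = 0.000185) and by edgeR without a filter on low counts, where 0.918% of genes were lower. Its adjusted p ran from 4.94e-07 to 0.980 over the alternatives. In introns all 10 were tested, with a median of 0.70 beside 0.03 over all genes, of which 0.186% were called higher and 3.31% lower. AGO3 was highest at 1.55 (SE 0.58, adjusted p = 0.128 by edgeR) and AGO2 lowest at -0.23 (SE 0.66, adjusted p = 0.849 by edgeR), and introns of DROSHA were at 0.92 (SE 0.57, adjusted p = 0.314 by edgeR). In coding sequence 9 were tested, with a median of 0.27 beside 0.19 over all genes, of which 0.0367% were called higher and 0% lower.

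The scaling decides how these counts read. With all reads of the library as library size in place of TMM, the median of all genes moved from -0.06 to 2.15 over whole gene reads, and 9 of 10 members (DROSHA not) were called higher, along with 39.5% of all genes. In the 3'UTR 6 members and 41.6% of genes were called higher, and in introns 8 members and 40.3% of genes. For AGO3 the log2 change was then 4.07 (SE 1.37, adjusted p = 0.0178 by edgeR), 1.91 above the median of all genes.

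Within the transcripts, HuR reads of these genes lay mostly in introns and 3'UTRs and rarely in coding sequence. Introns held 68.9% ± 5.94 (SD, n = 2) of the reads of the 10 genes in HuR, 14.6% ± 6.94 (SD, n = 3) in the slices and 52.3% (95% Wilson interval 51.6 to 53.1) in Total. The 3'UTR held 28.3% ± 5.42 (SD, n = 2) in HuR, 77.6% ± 15.8 (SD, n = 3) in the slices and 22.6% (interval 21.9 to 23.2) in Total. Coding sequence held 1.24% ± 0.36 (SD, n = 2) in HuR, 6.61% ± 7.79 (SD, n = 3) in the slices and 21.5% (interval 20.9 to 22.1) in Total.

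Without the DROSHA site, the 3'UTR share of the slices was 13.3% ± 4.28 (SD, n = 3) and that of HuR 18.1% ± 2.21 (SD, n = 2), so the order of the means turned. The groups overlapped, with 17.7% in G45 and 16.5% in HuR replicate 1. The intron share was then 62.3% ± 12.9 in the slices and 78.6% ± 1.28 in HuR, and the coding share was 20.9% ± 11.8 (33.6%, 19.0% and 10.2% in G20, G35 and G45) compared to 1.45% ± 0.56. The coding share was lower in both HuR replicates than in any slice or in Total, and the slice G20 had the highest of all. With 2 against 3 libraries, a two-sided exact permutation test cannot go below p = 0.2, and no test was made. Over all protein-coding genes, introns held 81.3% ± 0.75 in HuR and 88.1% ± 6.71 in the slices, coding sequence 4.80% ± 4.34 and 6.71% ± 3.89, and 3'UTRs 9.75% ± 4.01 and 3.27% ± 2.06. The median gene with at least 100 reads had 1.02% ± 0.082 of its reads in coding sequence in HuR and 8.22% ± 12.7 in the slices. Low coding shares in HuR were thus not limited to these genes. The slice mean came from G20 (22.9%), as G35 (0.870%) and G45 (0.921%) were below both HuR replicates (0.962% and 1.08%). A coding share lower in HuR than in every slice was therefore seen in the 10 genes but not in the median gene. In introns the median gene had 88.4% ± 3.28 in HuR and 79.4% ± 27.8 in the slices, unlike the order of the summed reads. That lower slice mean came from G20 (47.4%), as G35 and G45 were above both HuR replicates. In 3'UTRs it had 4.46% ± 2.17 in HuR and 1.82% ± 3.09 in the slices, with G20 (5.39%) between the HuR replicates.

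**Figure D3:**
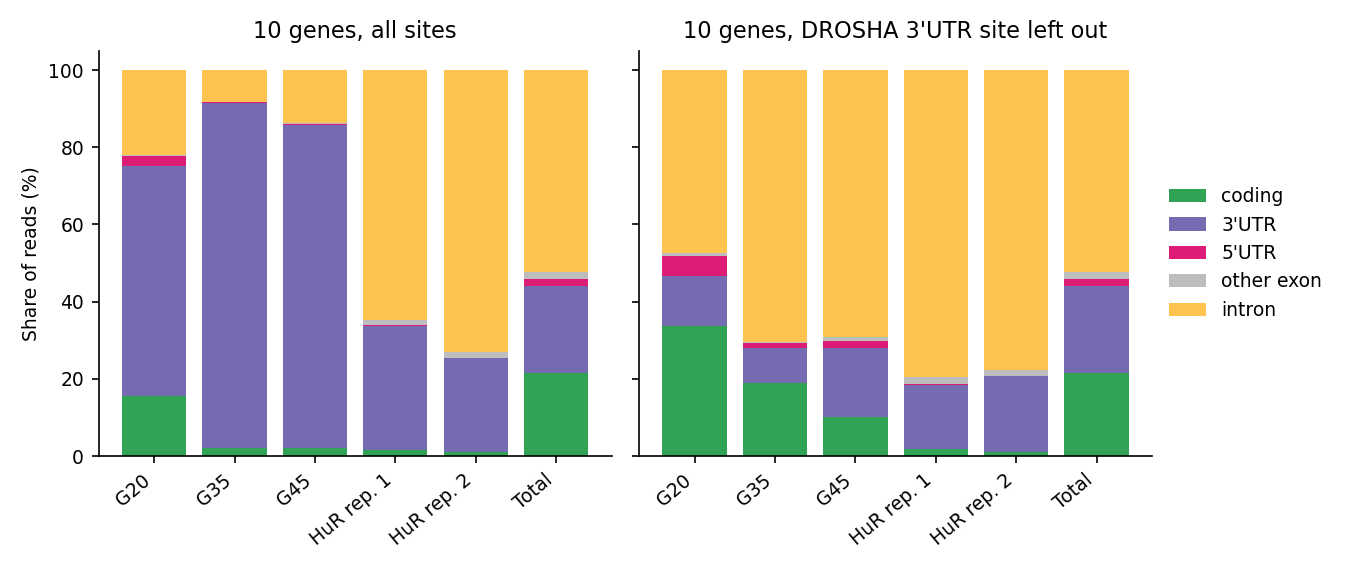
Share of the reads of the 10 genes in each part of the gene (y axis, %) by library, with all sites (left) and without the DROSHA 3'UTR site (right). Leaving the site out changes the slices from mostly 3'UTR to mostly intron, and both HuR replicates have almost no coding reads in either panel.

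The genes differed in where HuR reads lay. AGO1 had most of its reads in a 3'UTR of 10826 nt, with 57.7% ± 4.65 (SD, n = 2). AGO2, with a 3'UTR of 11891 nt, had 43.8% there in replicate 1, below the 55.2% in its introns, and 65.8% in replicate 2, a mean of 54.8% ± 15.6. Total had 3'UTR shares of 50.9% (interval 48.1 to 53.7) for AGO1 and 52.4% (49.8 to 54.9) for AGO2. AGO3 with 26.6% ± 2.98, DICER1 with 24.0% ± 2.64 and AGO4 with 21.7% ± 2.94 were in between. TNRC6A, TNRC6C and XPO5 had 93.3% ± 0.73, 91.2% ± 0.88 and 88.7% ± 2.44 of their HuR reads in introns. For XPO5 the Total library had 36.4% (interval 33.9 to 39.0) in introns and 19.8% (17.8 to 22.0) in the 3'UTR, whereas HuR had only 2.44% ± 1.71 in the 3'UTR.

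Per length, XPO5 was the only member below Total in both HuR replicates in its 3'UTR, which measures 1537 nt. In RPM per kb of the part (RPKM), it had 0.478 and 0.507 in HuR replicates 1 and 2, 0.438, 0.631 and 0 in the slices and 5.02 in Total. Its HuR level was within the range of the slices, as was that of DROSHA with its site (146 and 109 RPKM in HuR). The XPO5 values rest on few reads, 7 and 25 in HuR and 26, 6 and 0 in the slices. AGO3 had 1.15 and 4.54 RPKM in the HuR 3'UTR, 0.0162, 0 and 0.318 in the slices and 0.691 in Total. AGO2 had 1.80 and 5.69 RPKM in HuR, 0.150, 0.408 and 0.602 in the slices and 1.80 in Total. DICER1 had 1.58 and 5.07 RPKM in HuR, 0.0618, 0.238 and 0.390 in the slices and 1.77 in Total. The TNRC6 genes had 0.580 (TNRC6C) to 1.57 (TNRC6B) in replicate 1 and 1.89 (TNRC6C) to 4.85 (TNRC6B) in replicate 2. In the slices they had 0 (TNRC6C in G35) to 0.283 (TNRC6B in G45). Total had 2.79 for TNRC6A, 1.90 for TNRC6B and 0.427 for TNRC6C. TNRC6A (1.16) and TNRC6B were thus below Total in replicate 1 and above it in replicate 2.

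Set against Total, the ratio of 3'UTR RPM in HuR to that in Total was 0.0953 and 0.101 for XPO5 in replicates 1 and 2, at the percentiles 13.7 and 8.26 of the 8673 genes with at least 20 reads of the 3'UTR in Total. For AGO3 it was 1.66 and 6.56, at the percentiles 94.3 and 95.6. TNRC6C was also high in both replicates, with 1.36 and 4.42 at percentiles 90.9 and 89.3, and TNRC6A was near the middle, with 0.417 and 1.39 at 47.8 and 52.6. The median gene had 0.439 in replicate 1 and 1.28 in replicate 2, so the replicates themselves differed in level. DROSHA had 115 and 85.3 with its site and 0.368 and 2.73 without it, at percentiles 43.5 and 75.8. Since Total was 1 library, these ratios have no replicate check on that side.

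In introns the ratio was more even among the members. It ran from 1.24 (XPO5) to 2.62 (DICER1) in replicate 1, beside a median of 2.06 over 11376 genes, and from 2.67 (AGO2) to 6.84 (DICER1) in replicate 2, beside 4.43. DICER1 was the highest of the 10 in both, at percentiles 67.4 and 79.3. In coding sequence HuR was below Total throughout, with ratios of 0.0205 (XPO5) to 0.418 (DROSHA) in replicate 1 and 0.0751 (AGO1) to 0.668 (AGO3) in replicate 2. The medians over 9769 genes were 0.0912 and 0.134. Among genes, DROSHA was high, at percentiles 90.0 and 87.6, as was AGO3, at 86.6 and 93.0. Coding reads in HuR replicate 1 were few, such as 3 for XPO5, 2 for AGO1 and 30 for DROSHA.

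**Figure D4:**
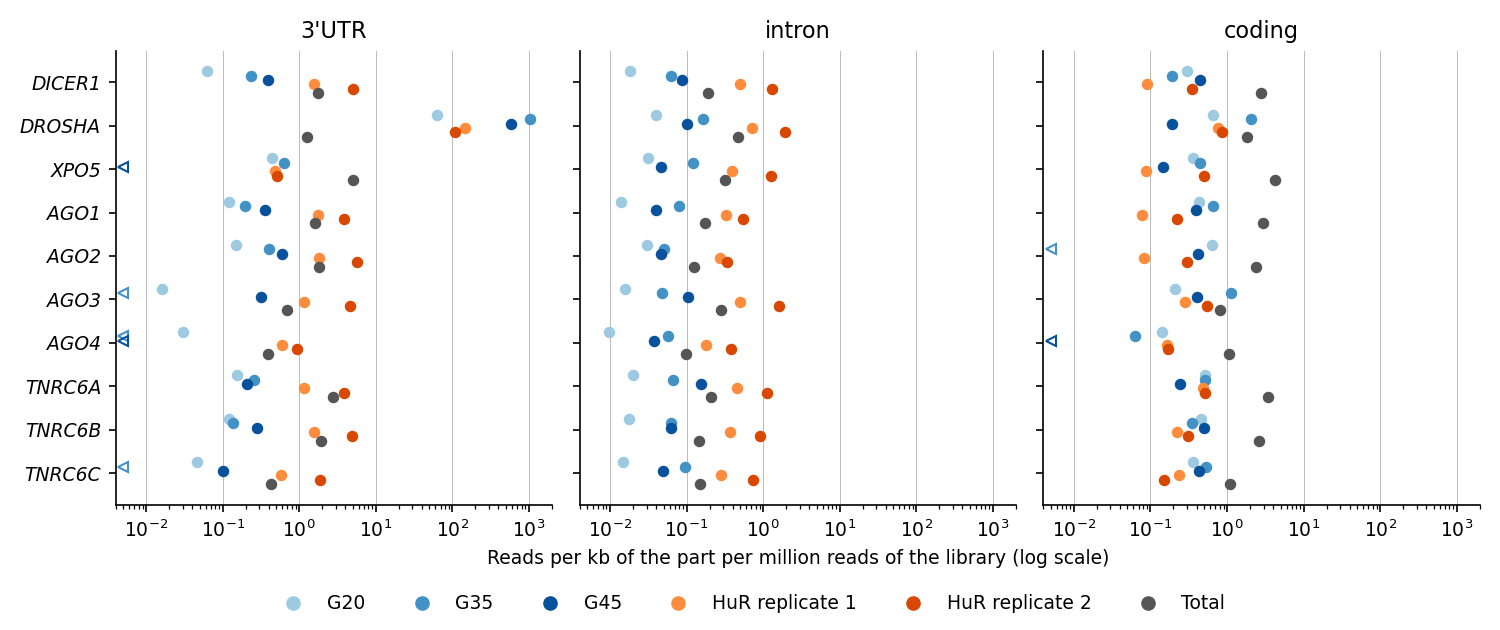
RPKM (x axis, log scale) of each gene in its 3'UTR, introns and coding sequence, 1 point per library; an open triangle at the left edge marks 0 reads. In the introns the slices lie left of Total and of both HuR replicates, in coding sequence Total lies right of most points, and DROSHA is at 62.7 to 1019 in the slices' 3'UTR.

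Over all parts of the genes together, conversion events were more frequent in HuR than in the slices. The 10 genes had 84.5 and 102 events per 100 reads in HuR replicates 1 and 2, compared to 41.5, 57.9 and 54.4 in G20, G35 and G45 and 21.0 in Total. The means were 93.0 ± 12.1 (SD, n = 2) for HuR and 51.3 ± 8.63 (SD, n = 3) for the slices, without overlap. Left without the DROSHA site, the slices were at 60.2 ± 28.7 (30.2 in G20 and 87.5 in G35) and HuR at 98.7 ± 7.55. Over all sites of the libraries the values were 48.6 and 87.3 in HuR, 18.7 in G20, 61.7 in G35, 56.2 in G45 and 36.9 in Total. These genes were above the library's own value in both HuR replicates and G20 and below it in Total, with the site or without it. In G35 and G45 they were below it with the site and above it without (87.5 and 62.7). The library's own value also covers sites outside protein-coding genes. No value over protein-coding genes alone was made, so these differences are not shown to be particular to the 10 genes. Events can exceed 1 per read since a read may hold up to 2 conversions.

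By part, the HuR values without the DROSHA site were 99.0 and 108 events per 100 reads in 3'UTRs, 92.2 and 103 in introns and 85.7 and 96.6 in the few coding reads. In Total they were 21.0, 23.3 and 15.7. The coding reads of G20 had 23.3 events per 100 reads and those of G35 had 82.6, which differed between slices by more than the parts of a gene did within HuR.

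Sites of these genes in HuR that shared at least 1 bp with a site of any slice on the same strand held 29.2% (95% Wilson interval 28.2 to 30.3) of the members' reads in replicate 1 and 22.6% (22.3 to 23.0) in replicate 2, a mean of 25.9% ± 4.65 (SD, n = 2). Without the DROSHA site these were 12.9% and 17.7%, or 15.3% ± 3.37. Over all protein-coding genes the shares were 50.5% and 24.8%, and the median gene with at least 100 reads had 19.1% and 14.6%. Apart from DROSHA with 51.4% ± 18.4, AGO2 had the highest share, 29.1% ± 5.60, followed by AGO1 with 20.7% ± 4.48 and DICER1 with 19.6% ± 9.72. AGO4 had the lowest with 6.26% ± 0.95, next to TNRC6C with 9.54% ± 4.31. AGO3 had 16.0% ± 5.98, and the spreads of AGO1, DICER1 and AGO3 overlapped. The spread of AGO2 overlapped those of AGO1 and DICER1 too, although AGO2 was above both in each replicate.

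Merged on the same strand over the 6 libraries, the 10 genes had 9125 sites. Of these, 1715 were in both HuR replicates, and 1446 of them were in none of the slices. Present in all 3 slices were 15, 5 of them in AGO2 and 3 each in DROSHA, TNRC6A and TNRC6B. These rules are unlike, as the genes had 909, 185 and 277 sites in the slices and 3466 and 5607 in HuR. The same counts over all genes were not made, so they are not shown to be particular to the members. TNRC6B, whose span of introns is the longest (270994 bp), had the most sites in both replicates, 370, followed by TNRC6A with 297 and DROSHA with 296.

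The base composition of the sites differed between libraries, and is given beside that of all genes. Among sites of 20 to 30 nt, T made up 37.5% and 37.6% of bases in HuR replicates 1 and 2, 24.6%, 29.1% and 36.6% in G20, G35 and G45 and 31.7% in Total. Over all protein-coding genes it was 37.6%, 38.6%, 23.8%, 33.3%, 37.1% and 31.1% in the same order. G made up 15.7% and 16.9% in HuR compared to 29.2%, 24.9% and 20.2% in the slices and 13.0% in Total. Over all protein-coding genes G made up 15.7%, 16.4%, 30.7%, 24.0%, 20.9% and 13.1% in the same order. The run TTTTT was in 16.3% and 20.3% of HuR sites, 6.29% of 477 sites in G20 and 25.2% of 139 sites in G45. Sites of all genes held it in 16.0%, 21.3%, 6.26% and 25.9% in the same order. The run GGG was in 19.4% and 21.8% of HuR sites, 48.2% of sites in G20 and 36.0% in G45. For GGG, sites of all genes were at 20.0%, 21.3%, 48.0% and 28.8%. In G35, TTTTT was in 12.8% of the 78 sites of these genes and in 18.9% of sites of all genes, and GGG in 39.7% and 34.9%. G45 was near HuR in T and G20 was lower. The runs were searched on the gene's strand only. The AU-rich pentamer ATTTA was in 8.42% and 8.96% of HuR sites and 8.45% of Total sites, beside 8.27%, 9.47% and 8.28% over all genes. In G20, G35 and G45 it was in 2.94%, 5.13% and 7.91% of sites, beside 2.62%, 6.34% and 8.27%.

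**Figure D5:**
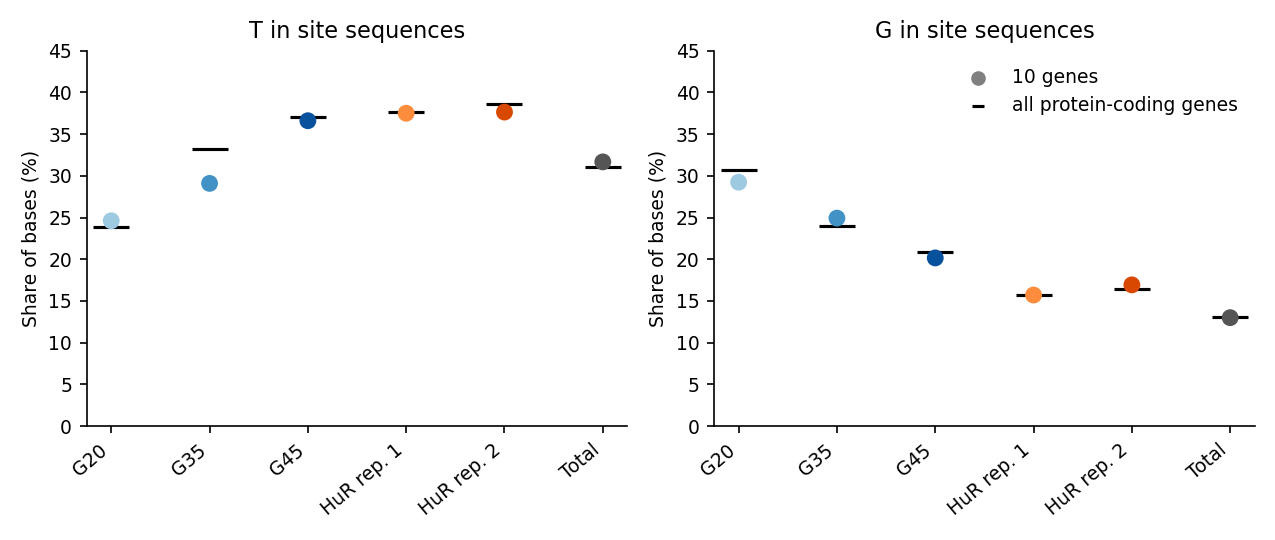
Share of T (left) and of G (right) among the bases of sites of 20 to 30 nt (y axis, %) by library, for the 10 genes (points) and all protein-coding genes (bars). T rises from 24.6% in G20 to 37.6% in HuR replicate 2 in the 10 genes, and the points lie near the bars except for T in G35.

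Other genes of the pathway, taken from a list of 14 (DGCR8, TARBP2, PRKRA, RAN, DDX5, DDX17, LIN28B, TUT4, MOV10, CNOT1, CNOT7, PAN2, PAN3 and LIMD1), were tested in the same fits. Of them, 14 were tested over whole gene reads, 7 over 3'UTR, 10 over coding and 11 over intron reads, and 0 passed the edgeR test in either direction. Over whole gene reads 5 of the 14 had an unadjusted edgeR p under 0.05, as did 3778 of 14389 genes. The median log2 change of the 14 over whole gene reads was 0.60, with 10 of 14 above 0. Over all genes the median was -0.06, with 48.5% above 0. The lowest adjusted p belonged to PAN2, a subunit of a deadenylase, with a log2 change of -2.61 in introns (SE 0.71, adjusted p = 0.0616 by edgeR).

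The profile over the 6 libraries was compared between genes as the Euclidean distance of log2(RPM + 0.5), centred per gene. The genes nearest to the mean of the 10 were ERMAP, KIF15 and RAB12, at distances of 0.178, 0.201 and 0.225. DROSHA was at 4.61 from that mean, and the other members were at 0.510 (TNRC6C) to 1.64 (AGO3). With DROSHA left out of the mean, the nearest were other genes, SOBP, METTL16 and CMTM4, at 0.150, 0.193 and 0.214.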

How the data were processed

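The authors used bowtie to map adapter-trimmed reads to hg19, gave PARalyzer those that mapped uniquely with at most 2 T > C mismatches, and deposited per library the whole-number count of reads and conversion events of each site, not normalized. Groups are sites with any read and clusters are a stricter set. Removal of duplicates is not given in the sources used here. The deposited mode score was not used.

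Reads were summed per gene and part (GENCODE release 44 mapped to GRCh37, protein-coding transcripts) by site midpoint. Counts were compared between HuR (n = 2) and GFP (n = 3) with edgeR 4.0.16 (filterByExpr, TMM, glmQLFTest; DESeq2 1.42.0 as an alternative) in R 4.3.3, fitted over all genes with Benjamini-Hochberg adjustment and a threshold of 0.05. GFP slices, which the paper describes as regions cut out of the gel, were 1 group. Neither the slices nor the HuR replicates are stated to be separate cultures, so p-values measure the spread between these libraries. Total entered only the alternative fit of all 6 libraries. In simulated whole gene counts of 13764 genes, 5 of 47 changes of log2 1, 37 of 49 of log2 2 and 50 of 50 of log2 3 were recovered. There were 4 false calls. These counts were drawn with the same dispersion for every gene and without differences between slices. The spread of the real libraries was not simulated, so these rates do not carry over to the real counts. RPM and RPKM used all reads of the library. Python 3.11.15, numpy 2.4.6, pandas 2.3.3 and scipy 1.17.1 were used.

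The members, the lists and the rule for sites were chosen with earlier results of these data known. Named were all 10 members, pathway genes called in a fit (at most 6; PAN2 was named after its value was seen), 2 sites per member, and the 3 genes nearest in profile. Sequences came from the deposited sites and were read against GRCh37. Of the 2 chosen sites per member, 5 HuR and 4 background stretches are shown and the rest, among them those of AGO2, are not reported here as sequence. Alternatives changed the normalization, tool, filter, library size, libraries in the fit, minimum of reads, table, placement of sites, overlap and libraries left out.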

Additional observations from a re-analysis of the deposited data

How the results depend on the processing

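No paired analysis was possible because the GFP slices carry no replicate number. Depth limits the 3'UTR and coding comparisons, since single members had 0 reads there in some slices. The count of members called, 0 in each edgeR fit, was changed by the library size of all reads (9 higher over whole gene, 6 over 3'UTR and 8 over intron reads), by DESeq2 (1 lower over whole gene and 1 over 3'UTR reads, DROSHA in both) and, in the 3'UTR, by dropping the filter on low counts (1 lower, DROSHA at -3.65, adjusted p = 4.94e-07). It stayed 0 under the other alternatives, also without any 1 library. The calls over all genes were less stable. Over whole gene reads, 30 higher and 302 lower became 0 and 0 with RLE factors in edgeR, and 0 to 121 higher and 0 to 747 lower without 1 library. In introns, 23 higher and 408 lower became 5 to 238 higher and 23 to 436 lower without 1 library, in the 3'UTR 0 and 0 became 0 to 22 and 0 to 8, and in coding sequence 2 and 0 became 0 to 214 and 0 to 6. The causes were not tested.

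Of 377 log2 changes of single members over whole gene, 3'UTR and intron reads, 366 kept their sign. The sign turned for AGO4 with sites of at least 5 reads (-0.26 over whole gene and -0.49 over intron reads) and with clusters (-0.61 and -1.22), for TNRC6C over whole gene reads with clusters (-0.37), for DROSHA without its site (1.08) and for AGO2 in introns with all reads as library size (2.85), sites of at least 5 reads (0.84) and clusters (0.65). Without 1 library, XPO5 ranged from -0.042 (without HuR replicate 2) to 1.07 over whole gene reads, and AGO2 from -0.50 to 0.42 (without G20) over intron reads. Without its site, DROSHA could not be fitted in the 3'UTR.

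The share of HuR reads at background sites was 16.4% with background sites of at least 5 reads, 50.9% ± 37.1 (SD of the 2 replicates) with clusters, 15.3% without the DROSHA site and 20.2% (without G20) to 29.2% (without HuR replicate 2) without 1 library. The 3'UTR share of HuR was 12.9% with each site counted once, 46.7% ± 28.6 with sites of at least 5 reads, 51.8% ± 34.9 with clusters and 18.1% without the site. That of the slices was 14.0% with each site counted once, 93.4% with clusters, 24.4% as the mean of the members' shares and 13.3% without the site, and that of Total was 13.8%, 33.4% and 24.0% under the first 3 of these and 29.2% with sites of at least 5 reads. Conversion events per 100 reads were 60.2 in the slices without the site, and 18.8 and 25.2 in Total with sites of at least 5 reads and with clusters.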
